A study of Homo sapiens with 20 samples.

Results

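The genes described here encode the MYC, MAX and MXD network of transcription factors: MYC, MAX, MXD1, MXI1, MXD4, MNT and MLX. A gene was measured where the array annotation gave at least 1 probe set with that gene as its sole symbol, and its probe set with the highest mean level was used. This held for 6 of the 7 listed genes, out of 11963 genes measured in the same way. All 3 probe sets annotated to MXD4 also carry a second symbol, so no value is given for MXD4.

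RNA was measured on 20 Affymetrix human expression arrays of SUM44, an established human cell line from an invasive lobular breast carcinoma. Every group, controls included, first spent 3 days without hormone in charcoal-stripped serum (2% in the series text, 10% in the sample text). The 5 groups of 4 arrays were baseline cells at 0 h, cells given ethanol vehicle (0.01%) for 3 h or 24 h, and cells given 1 nM estradiol (E2) for 3 h or 24 h. The replicates are described as biological quadruplicates. For the 24 h E2 group the title and description of each of the 4 arrays were followed, since its treatment field instead reads baseline. All results come from 1 cell line, and in a bulk sample a change in the number of cells expressing a gene and a change in RNA per cell cannot be told apart.

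MYC is a basic helix-loop-helix leucine zipper protein that binds DNA as a heterodimer with MAX, mainly at the E-box CACGTG, and activates genes of growth, ribosome production and metabolism. MXD1, MXI1 (also called MXD2), MXD3, MXD4 and MNT compete with MYC for MAX and, at the same sites, recruit SIN3 and histone deacetylases, which lower transcription. MLX is a MAX-like protein that pairs with the glucose-responsive factors MondoA and ChREBP, and also with MNT and some MXD proteins. In estrogen receptor-positive breast cancer cells MYC is a well-known early target of the receptor, which is the setting of the comparisons below.

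Promoter windows of 300 bases, from 250 bases before to 50 after a transcript start, were read from RefSeq on GRCh38.p14 for 6 of the 7 members; the promoter of MYC was not analysed here. Of 9 windows from 6 members, 3 held CACGTG, which reads the same on both strands: 1 each of MNT, MLX and MXD4. Among all 35116 such windows, 2548 (7.26%) held it. The looser letters CANNTG, which include CACGTG, were in 5 of the 9 member windows and in 68.7% of all windows. Windows of MNT (chr17:2401011-2401310, minus strand) and MLX (chr17:42566850-42567149, plus strand) are shown because they hold the network's own binding letters, in capitals, 193 and 50 bases before the start. That of MXD1 (chr2:69914859-69915158, plus strand) is shown for contrast, since MXD1 had the second-largest response after MYC and CACGTG is not in its window. The looser letters CANNTG, not put in capitals, occur 3 times in the MXD1 window and 1 time each in those of MNT and MLX. Each window is written 5′ to 3′ on the strand of the gene.
MNT: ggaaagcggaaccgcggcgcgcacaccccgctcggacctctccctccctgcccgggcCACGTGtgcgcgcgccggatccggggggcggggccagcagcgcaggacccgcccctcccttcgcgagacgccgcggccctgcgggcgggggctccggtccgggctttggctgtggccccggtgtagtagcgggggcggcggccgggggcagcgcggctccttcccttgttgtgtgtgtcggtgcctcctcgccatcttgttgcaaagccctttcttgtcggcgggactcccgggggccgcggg
MLX: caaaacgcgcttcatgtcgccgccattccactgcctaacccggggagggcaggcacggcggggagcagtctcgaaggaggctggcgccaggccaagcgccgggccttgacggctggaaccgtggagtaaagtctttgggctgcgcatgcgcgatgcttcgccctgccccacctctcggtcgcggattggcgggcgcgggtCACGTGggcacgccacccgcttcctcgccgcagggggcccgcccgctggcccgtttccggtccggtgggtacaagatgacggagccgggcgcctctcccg
MXD1: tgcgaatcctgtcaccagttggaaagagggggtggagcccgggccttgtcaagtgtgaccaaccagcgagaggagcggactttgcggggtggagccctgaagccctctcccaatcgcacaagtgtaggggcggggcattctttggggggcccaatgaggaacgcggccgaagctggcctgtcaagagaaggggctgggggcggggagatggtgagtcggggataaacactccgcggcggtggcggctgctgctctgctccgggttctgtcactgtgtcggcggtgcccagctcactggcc
A match to these letters is a description of the sequence and not a measured binding site.

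The first question was how E2 changed each gene against vehicle at the same time. All levels below are the deposited log2 values, so a difference of 1 is a doubling, and a gene is called changed where its Benjamini-Hochberg adjusted p from limma, over all 11963 genes, was below 0.05. After 3 h of E2, 4 of 6 members changed: MYC, MXD1 and MAX rose and MNT fell. Among all genes 31.1% were called at 3 h. After 24 h, 5 of 6 changed: MYC, MXD1 and MLX were higher and MXI1 and MAX lower. Among all genes 45.7% were called at 24 h. The median absolute difference of the 6 members was 0.30 at 3 h, where that of all genes was 0.0791, and 0.36 at 24 h, where that of all genes was 0.117. The members were chosen with earlier results of these data known, so this contrast is a description and not a test. No member had a group mean in the dimmest 25% of genes, which the values for all genes include. A change of at least 1.5-fold was reached by MYC and MXD1 at 3 h, against 5.31% of all genes, and by MYC alone at 24 h, against 6.34%. E2 and vehicle arrays did not overlap for 4 of 6 members at 3 h and 5 of 6 at 24 h. Among all genes this held for 30.6% and 41.4%. Vehicle and 0 h arrays did not overlap for 2 of 6 members at 3 h and 3 of 6 at 24 h, against 25.4% and 19.8% of all genes.

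**Figure D1:**
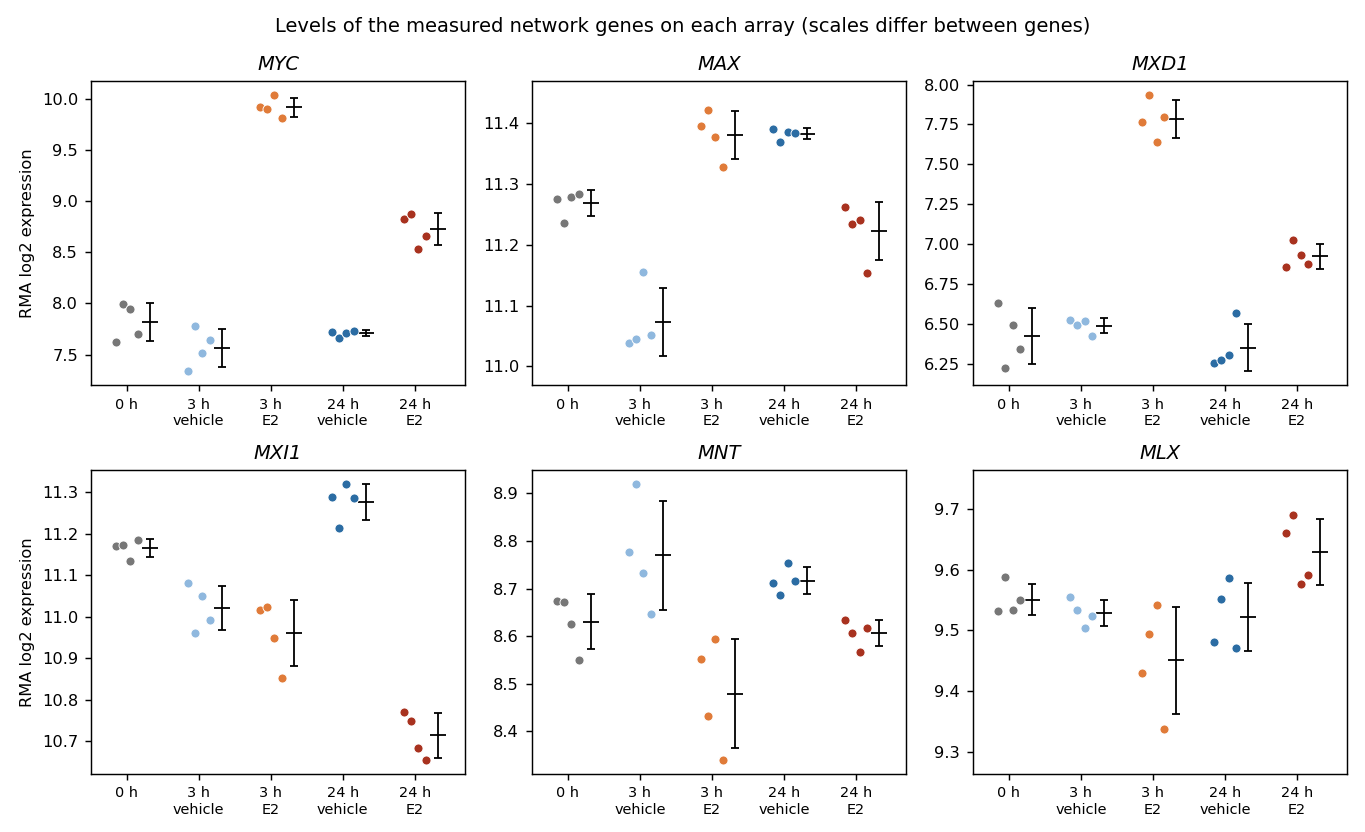
Log2 level of each measured network gene (vertical axes, each with its own range) on every array, by group on the horizontal axis; points are arrays and bars the mean and SD of 4 arrays. MYC and MXD1 stand highest after 3 h of E2 and next highest after 24 h, and MXI1 is lowest after 24 h of E2.

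MYC, the activating partner, stood at 7.34, 7.78, 7.52 and 7.64 on the 3 h vehicle arrays and at 9.92, 9.90, 10.04 and 9.81 on the 3 h E2 arrays. Every E2 array lay more than 2 log2 units above every vehicle array at this time. The difference was 2.35 ± 0.09 (SE; 95% confidence interval 2.15 to 2.55; 5.09-fold; limma adjusted p 9.6e-14), which ranked 12 of 11963 genes by size. At 24 h the vehicle arrays read 7.72, 7.66, 7.71 and 7.73, and the E2 arrays 8.83, 8.88, 8.53 and 8.66. The groups again did not overlap, with a smaller rise of 1.02 ± 0.09 (95% interval 0.82 to 1.21; 2.02-fold; limma adjusted p 2.6e-08). The effect at 24 h was lower than that at 3 h by −1.33 ± 0.13 (limma adjusted p 1.4e-07). At 0 h the arrays read 7.62, 7.99, 7.95 and 7.71, and both vehicle groups overlapped this range. In order of their means, the 0 h and vehicle groups (7.57 to 7.82) were followed by 24 h E2 at 8.72 ± 0.16 (SD, n = 4) and 3 h E2 at 9.92 ± 0.09 (SD, n = 4). The first 3 groups overlapped, and both E2 groups stood apart from each other and from the rest.

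MAX, the shared partner that MYC and the MXD proteins need to bind DNA, moved in opposite directions at the 2 times, and by little. Its 3 h vehicle arrays read 11.04, 11.04, 11.16 and 11.05 and its 3 h E2 arrays 11.40, 11.42, 11.38 and 11.33. The E2 arrays were all higher, by 0.31 ± 0.03 (95% interval 0.24 to 0.37; 1.24-fold; limma adjusted p 1.2e-07). At 24 h vehicle read 11.39, 11.37, 11.38 and 11.38 and E2 11.26, 11.23, 11.24 and 11.15. There all E2 arrays were lower, by −0.16 ± 0.03 (95% interval −0.23 to −0.09; limma adjusted p 0.00028), and the change of the effect between the times was −0.47 ± 0.04 (limma adjusted p 6.9e-08).

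MAX also differed between the vehicle groups and baseline, where vehicle and time in culture cannot be told apart. The 0 h arrays read 11.28, 11.24, 11.28 and 11.28, above all 3 h vehicle arrays (vehicle minus baseline −0.20 ± 0.03; limma adjusted p 0.00012) and below all 24 h vehicle arrays (0.11 ± 0.03; limma adjusted p 0.021). In a fit of all single-symbol probe sets, 3 of the 5 MAX probe sets were called lower in vehicle at 3 h (all 5 from −0.20 to −0.01, the one used here being the largest), and 2 were called higher at 24 h (all 5 from 0.04 to 0.15). Read against 0 h, which carries no test here, the 3 h E2 mean was 0.11 higher with no overlap, and the 24 h E2 arrays overlapped the baseline with a mean difference of −0.05. The E2 effect and the vehicle difference use the same vehicle arrays, so they are not independent. For E2 against vehicle, also in the fit of all single-symbol probe sets, 4 of 5 were called higher at 3 h, with all 5 between 0.09 and 0.33. At 24 h, 5 of 5 were called lower, from −0.16 to −0.12. Some carry the suffix _x_at, which marks probes that may also bind other transcripts.

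**Figure D2:**
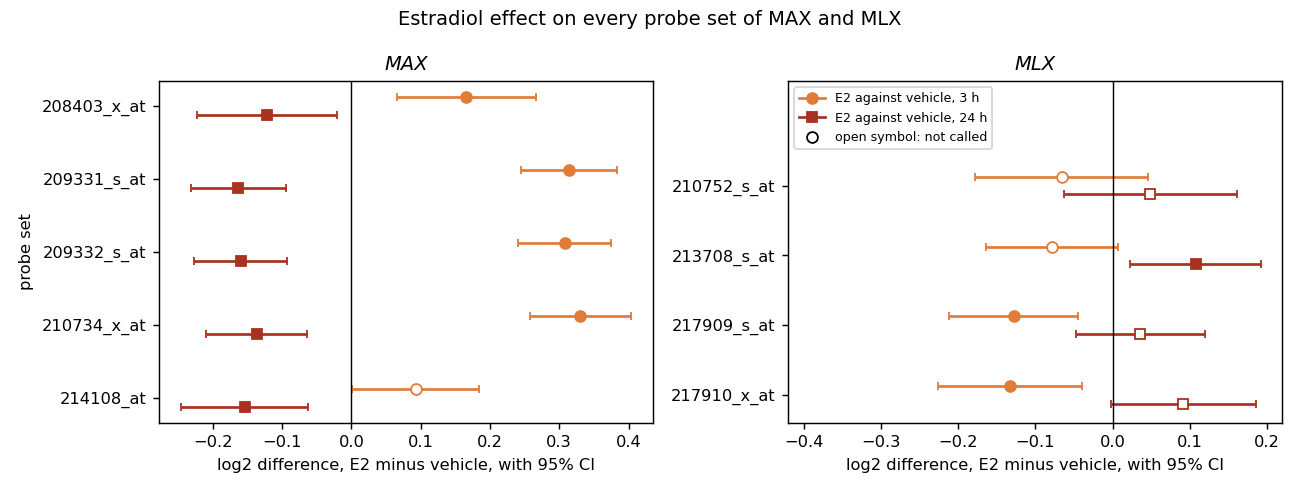
Log2 difference, E2 minus vehicle, for each of the 5 probe sets of MAX (left) and 4 of MLX (right), with 95% confidence intervals; circles are 3 h, squares 24 h, and open symbols were not called. All MAX probe sets lie above 0 at 3 h and below 0 at 24 h, while all 4 of MLX lie below 0 at 3 h, 2 of them called, and above 0 at 24 h, 1 of them called.

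MXD1, which represses E-box genes with MAX and is known to rise in differentiating cells, rose together with MYC. Vehicle arrays at 3 h read 6.52, 6.49, 6.52 and 6.42, and E2 arrays 7.77, 7.94, 7.64 and 7.79. The 2 sets were more than 1 log2 unit apart, with a difference of 1.30 ± 0.08 (95% interval 1.13 to 1.47; 2.46-fold; limma adjusted p 9.9e-11), rank 146 by size. By 24 h vehicle read 6.26, 6.27, 6.30 and 6.57 and E2 6.86, 7.03, 6.93 and 6.88. The rise was then 0.57 ± 0.08 (95% interval 0.40 to 0.74; 1.49-fold; limma adjusted p 7.6e-06), again with no overlap, and was smaller than at 3 h by −0.72 ± 0.11 (limma adjusted p 4.6e-05). The 0 h arrays, at 6.63, 6.22, 6.49 and 6.34, overlapped both vehicle groups. As for MYC, 3 h E2 was the highest group and 24 h E2 the next, above the 0 h and vehicle groups. Across the 20 arrays the levels of MYC and MXD1 had a Pearson r of 0.948, a description only, since the arrays fall into 5 groups.

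MXI1, another MXD repressor, fell after 24 h of E2. At 3 h vehicle read 11.08, 10.96, 11.05 and 10.99 and E2 11.02, 11.02, 10.95 and 10.85, so the groups overlapped. The difference of −0.06 ± 0.04 did not pass the test (95% interval −0.14 to 0.02; limma adjusted p 0.29). At 24 h vehicle read 11.29, 11.21, 11.32 and 11.28 and E2 10.77, 10.75, 10.69 and 10.66. Every E2 array was lower, by −0.56 ± 0.04 (95% interval −0.64 to −0.48; 1.48-fold; limma adjusted p 4.8e-10). The difference between the times was itself called, at −0.50 ± 0.06 (limma adjusted p 6.1e-07). Baseline arrays, at 11.17, 11.17, 11.13 and 11.18, lay above all 3 h arrays of either kind and above the 24 h E2 arrays, which were 0.45 lower on average. Vehicle at 3 h was below baseline by −0.14 ± 0.04 (limma adjusted p 0.013).

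MNT, a broadly expressed MAX-binding repressor, was lower after 3 h of E2 than after 3 h of vehicle. Vehicle arrays read 8.78, 8.92, 8.73 and 8.65 and E2 arrays 8.55, 8.43, 8.59 and 8.34. All E2 arrays were lower, by −0.29 ± 0.05 (95% interval −0.40 to −0.18; 1.22-fold; limma adjusted p 0.00025). At 24 h the arrays read 8.71, 8.69, 8.75 and 8.72 with vehicle and 8.63, 8.61, 8.57 and 8.62 with E2. These did not overlap either, yet the difference of −0.11 ± 0.05 did not pass (95% interval −0.22 to 0.003; limma adjusted p 0.11; 0.019 in a fit of only these groups). Nor did the change between the times, 0.18 ± 0.08 (limma adjusted p 0.08), so a smaller effect at 24 h was not shown. Baseline arrays read 8.67, 8.67, 8.63 and 8.55. Vehicle at 3 h overlapped them, with a mean 0.14 ± 0.05 higher. That difference was not called (limma adjusted p 0.082), but was called in 4 of 30 alternative fits. Read against 0 h, which carries no test here, the 3 h E2 mean differed by −0.15 and the 24 h E2 mean by −0.02. Both E2 groups overlapped the baseline.

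MLX, the partner of MondoA and ChREBP, moved little. Vehicle at 3 h read 9.56, 9.53, 9.50 and 9.52 and E2 9.43, 9.49, 9.54 and 9.34, with overlap and a difference of −0.08 ± 0.04 that did not pass (95% interval −0.16 to 0.01; limma adjusted p 0.16). Of the 4 MLX probe sets, 2 were called lower at 3 h (both −0.13; limma adjusted p 0.019 and 0.03). The mean of all 4 was called as well (−0.10; limma adjusted p 0.024), as was the fit without 3 h E2 array C (0.049). At 24 h vehicle read 9.48, 9.55, 9.59 and 9.47 and E2 9.66, 9.69, 9.58 and 9.59, also overlapping. The rise of 0.11 ± 0.04 was called (95% interval 0.02 to 0.19; 1.08-fold; limma adjusted p 0.034), but only the probe set used here was called at 24 h, and the call was lost when the mean of all 4 was tested (0.07, limma adjusted p 0.09). It was also lost in a fit of only the 24 h groups (limma adjusted p 0.064) and without vehicle array A or D or E2 array A or B at 24 h (limma adjusted p 0.08 to 0.11). At 0 h MLX read 9.53, 9.59, 9.53 and 9.55. The change between the times was 0.19 ± 0.06 (limma adjusted p 0.014).

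**Figure D3:**
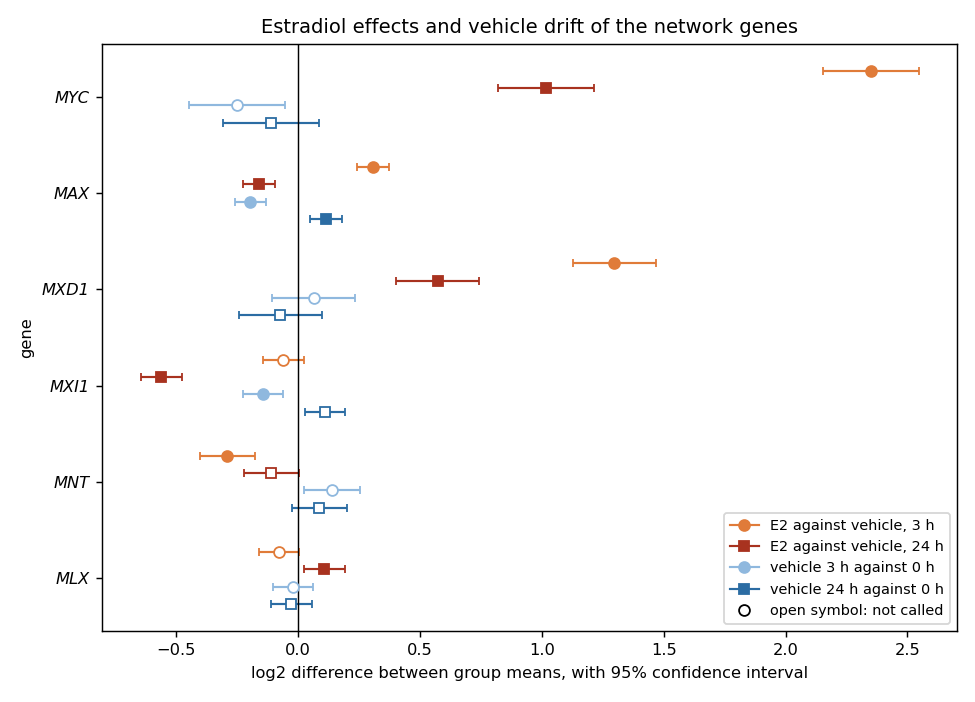
Log2 differences with 95% confidence intervals for the 6 measured genes: E2 minus vehicle at 3 h and 24 h, and vehicle minus 0 h at each time; filled symbols were called and open ones were not. The E2 effects on MYC and MXD1 shrink from 3 h to 24 h, that on MAX turns from above to below 0, and that on MXI1 appears at 24 h.

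The next comparison asked whether the E2 effect itself changed between 3 h and 24 h. It did for 5 of 6 members (4 lower, 1 higher; the exception was MNT), where 34.3% of all genes were called. Vehicle against baseline was tested to show how far the genes differed with no hormone added. At 3 h 2 of 6 were called, MAX and MXI1, both lower, where 20% of all genes were called. At 24 h 1 of 6, MAX, was called higher, where 11.9% of all genes were called. The MAX call at 24 h was lost without 0 h array B (limma adjusted p 0.068), and the MXI1 call at 3 h without 3 h vehicle array B (limma adjusted p 0.051). MYC was called at neither time, with −0.25 ± 0.09 at 3 h (limma adjusted p 0.071; 0.025 without 3 h vehicle array B) and −0.11 at 24 h (limma adjusted p 0.5).

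Of 6 further genes of the extended network, all measured, 1 was called higher and 2 lower at 3 h (50%, against 31.1% of all genes). MYCN, the neural paralog of MYC, moved opposite to MYC: from 10.85 with vehicle to 10.11 with E2 at 3 h (−0.74 ± 0.04; limma adjusted p 3.9e-11) and from 10.92 to 9.89 at 24 h (−1.03 ± 0.04; limma adjusted p 2.1e-13), with no overlap either time. MYCN had 3 probe sets, and the other 2 were not called at 3 h (−0.11 and −0.07) and were called lower at 24 h (−0.25 and −0.21). MXD3, an MXD repressor tied to proliferating cells, rose at 3 h from 7.80 to 8.44 (0.64 ± 0.08; limma adjusted p 2.2e-06), while its 0.18 ± 0.08 at 24 h did not pass (limma adjusted p 0.069; 0.039 with each array centred on its median). Its 3 h vehicle level was itself below the baseline mean of 8.05, by −0.25 ± 0.08 with overlapping arrays (limma adjusted p 0.031). MGA, a giant MAX-binding protein, fell by 0.26 ± 0.05 at 3 h and by 0.15 ± 0.05 at 24 h (limma adjusted p 0.00014 and 0.011).

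At 24 h 1 of these genes was called higher and 3 lower (66.7%, against 45.7% of all genes). MLXIP, which encodes MondoA, was lower by −0.29 ± 0.04 (limma adjusted p 1.7e-06), and MYCL, a MYC paralog, was higher by 0.24 ± 0.07 with overlapping arrays (limma adjusted p 0.0083). The MYCL call was lost when the mean of its probe sets was tested (limma adjusted p 0.13). MLXIPL, which encodes ChREBP, was not called at either time.

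Genes known to be induced by MYC did not move as 1 block. Of 29 measured, 2 were called higher and 8 lower at 3 h (median −0.02; 34.5% called, against 31.1% of all genes). At 24 h 13 were higher and 7 lower (median 0.08; 69% called, against 45.7%), and 15 and 4 with each array centred on its median. In vehicle against baseline, 6 of the 29 were called higher and 0 lower at 3 h (20.7%, against 20% of all genes). At 24 h, 0 were higher and 6 lower in vehicle (20.7%, against 11.9%). The part of these vehicle differences in the E2 differences was not tested. With E2, CDC25A, a phosphatase that activates cyclin-dependent kinases, was higher at both times (0.33 ± 0.06 and 0.70 ± 0.06). ODC1, the first enzyme of polyamine synthesis, was lower at 3 h (−0.49 ± 0.05) and higher at 24 h (0.47 ± 0.05). Its vehicle level was 9.50 at 3 h, above a baseline of 8.68 by 0.82 ± 0.05 (limma adjusted p 7.6e-10), so the E2 level at 3 h, 9.01, was itself above the baseline mean. CAD, which starts pyrimidine synthesis, was lower at 3 h (−0.41 ± 0.03) and higher at 24 h (0.09 ± 0.03, limma adjusted p 0.036). The 24 h call was lost with a replicate block (limma adjusted p 0.052) and in a fit of only the 24 h groups (0.1). It was also lost without 24 h vehicle array A or B or 24 h E2 array A, B or C (0.057 to 0.15). The chaperonin gene HSPE1 was lower at both times (−0.22 ± 0.03 and −0.34 ± 0.03). The transferrin receptor gene TFRC was higher at both times (0.13 ± 0.03 and 0.21 ± 0.03), and the nucleoside diphosphate kinase gene NME1 at 24 h (0.31 ± 0.03). Lactate dehydrogenase A (LDHA) and IMPDH2 of guanine synthesis were lower at 24 h (−0.25 ± 0.03 and −0.21 ± 0.03).

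Among genes that MYC is known to repress, 10 were measured: 2 were called higher and 5 lower at 3 h (70% called, against 31.1% of all genes), and 1 higher and 5 lower at 24 h (60%, against 45.7%; 2 and 4 with median centring). In vehicle against baseline, 2 were called higher and 2 lower at 3 h (40%, against 20% of all genes). At 24 h, 4 were higher and 0 lower in vehicle (40%, against 11.9%). With E2 the list median was −0.11 at both times. The DNA damage-inducible gene GADD45A was lower by −0.70 ± 0.04 at 3 h and −1.15 ± 0.04 at 24 h (limma adjusted p 4.1e-11 and 1.8e-14). CDKN1B, which encodes the cell cycle inhibitor p27, was lower by −0.31 ± 0.03 and −0.35 ± 0.03. NDRG1, a stress-responsive gene, was lower by −0.15 ± 0.03 at 3 h and −1.13 ± 0.03 at 24 h (limma adjusted p 0.0015 and 1e-15). CEBPA, a differentiation factor, was lower by −0.23 ± 0.05 at 3 h and −0.13 ± 0.05 at 24 h. Its 24 h call (limma adjusted p 0.033) was lost with median centring (limma adjusted p 0.058). It was also lost without 24 h vehicle array C or D or 24 h E2 array B or D (0.062 to 0.096). The stress factor DDIT3 was higher at 3 h (0.44 ± 0.05), as was THBS1, an inhibitor of blood vessel growth, by 0.17 ± 0.06 with overlapping arrays (limma adjusted p 0.043). The THBS1 call was lost with the mean of its probe sets (0.24) and without 3 h vehicle array A, C or D or 3 h E2 array A or D (0.067 to 0.14). It was also lost with a replicate block (limma adjusted p 0.053) and in a fit of only the 3 h groups (limma adjusted p 0.084). Leaving out 0 h array B or C, 24 h vehicle array C or 24 h E2 array A or C lost it too (0.05 to 0.052). NDRG2 was higher at 24 h by 0.16 ± 0.05. The medians of all genes were 0.000201 at 3 h and 0.0165 at 24 h.

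**Figure D4:**
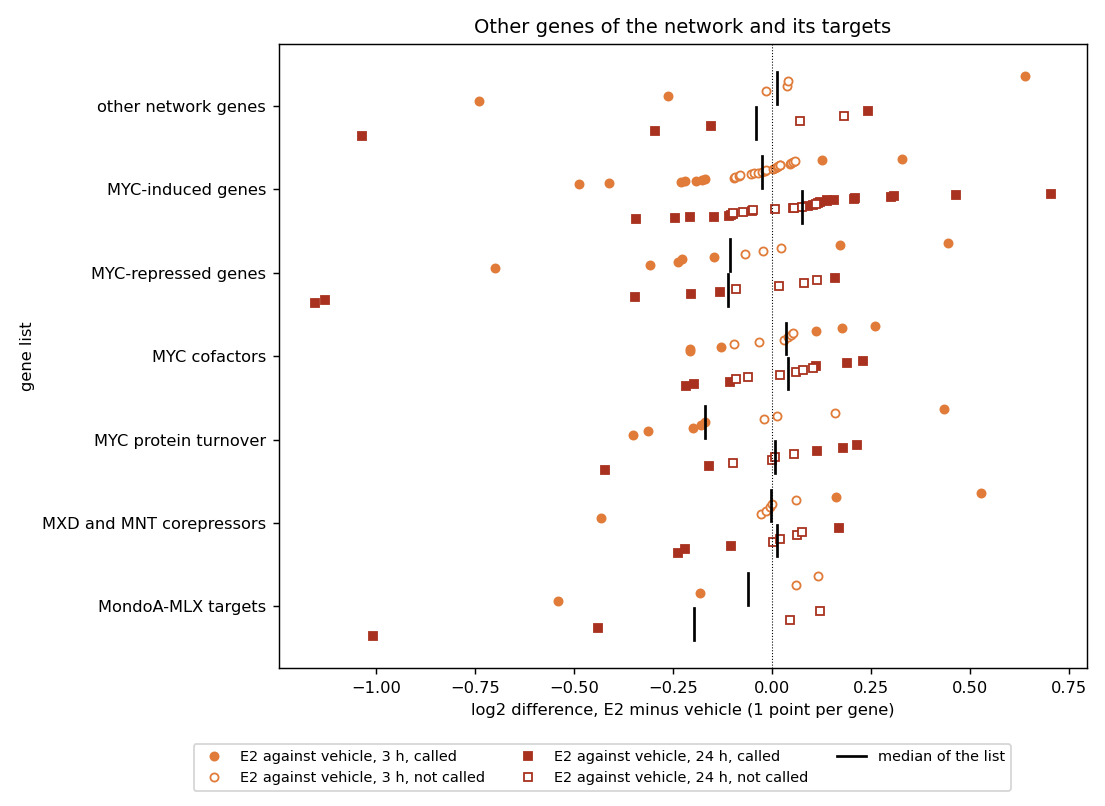
Log2 difference, E2 minus vehicle, for each gene of 7 lists related to the network, with 1 point per gene; circles are 3 h, squares 24 h, filled symbols were called and black bars are list medians. MYC-induced genes lie on both sides of 0 at either time, with the most called genes to the right of 0 at 24 h.

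Genes for proteins that work with the network changed by small amounts in both directions. Of 12 measured MYC cofactor genes, 3 were called higher and 3 lower at each time (50% called both times, against 31.1% and 45.7% of all genes; 5 higher and 2 lower at 24 h with median centring). PAF1, of an elongation complex, was higher at both (0.26 ± 0.04 and 0.19 ± 0.04), as was CDK9, an elongation kinase (0.18 ± 0.04 and 0.11 ± 0.04). EP400, of a chromatin-remodelling complex, was higher at 3 h (0.11 ± 0.04), and ACTL6A, an actin-like subunit of such complexes, at 24 h (0.23 ± 0.08). TRRAP, a scaffold of acetyltransferase complexes, was lower at 3 h (−0.21 ± 0.04), with ZBTB17, which encodes the MYC partner MIZ1 (−0.21 ± 0.06), and the chromatin remodeller gene SMARCB1 (−0.13 ± 0.05). At 24 h the acetyltransferase genes KAT2A (−0.22 ± 0.04) and KAT5 (−0.11 ± 0.04) and the helicase gene RUVBL1 (−0.20 ± 0.06) were lower. Calls of EP400, SMARCB1, CDK9 at 24 h, ACTL6A, KAT5 and RUVBL1 were each lost without at least 1 single array. These arrays were 3 h vehicle A or C or 3 h E2 C for EP400 (limma adjusted p 0.053 to 0.093), and 3 h vehicle A or B or 3 h E2 A or C for SMARCB1 (0.073 to 0.17). At 24 h they were vehicle A or B or E2 A, B or C for CDK9 (0.053 to 0.17), vehicle D for ACTL6A (0.085), vehicle B, C or D or E2 A, B or C for KAT5 (0.058 to 0.13) and E2 C or D for RUVBL1 (0.053 each). Testing the mean of all probe sets also lost EP400 (0.04), SMARCB1 (−0.08) and KAT5 at 24 h (−0.07), with limma adjusted p 0.41, 0.23 and 0.14. Median centring lost SMARCB1 and KAT5 at 24 h as well (limma adjusted p 0.095 and 0.11).

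Among 9 genes of MYC protein turnover, 1 was higher and 5 lower at 3 h (66.7% called, against 31.1% of all genes), and 3 were higher and 2 lower at 24 h (55.6%, against 45.7%). AURKA, a kinase that protects MYC family proteins from degradation, was higher at both times (0.43 ± 0.04 and 0.18 ± 0.04). FBXW7, the ubiquitin ligase subunit that marks phosphorylated MYC for degradation, was lower at both (−0.35 ± 0.05 and −0.16 ± 0.05). MYCBP2, another ubiquitin ligase gene, was lower at 3 h (−0.17 ± 0.04), and STUB1, a chaperone-linked ligase gene, was higher at 24 h (0.11 ± 0.03). SKP2, a ubiquitin ligase subunit that acts on MYC, was lower at 3 h (−0.31 ± 0.04) and higher at 24 h (0.22 ± 0.04). USP36, a deubiquitinase gene, was lower at 24 h (−0.42 ± 0.11), with both group means in the dimmest 25% of genes. In vehicle at 3 h against baseline, 2 of the 9 genes were called higher and 2 lower (44.4%, against 20% of all genes). FBXW7 was among the higher (0.21 ± 0.05, limma adjusted p 0.0026). AURKA and SKP2 were lower (−0.18 ± 0.04 and −0.14 ± 0.04, limma adjusted p 0.0012 and 0.0073). Baseline means were 8.03 for FBXW7 and 9.13 for AURKA, against 7.89 and 9.38 in 3 h E2. In vehicle at 24 h against baseline, 2 of the 9 were called higher and 0 lower (22.2%, against 11.9% of all genes). The AURKA mean in 24 h vehicle was 9.45, above its means at baseline and in 3 h E2.

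Of 8 corepressor genes used by MXD and MNT proteins, 2 were higher and 1 lower at 3 h (37.5% called, against 31.1% of all genes), and 1 higher and 3 lower at 24 h (50%, against 45.7%). SIN3B, the scaffold that MXD proteins bind, was higher at 3 h (0.53 ± 0.07; limma adjusted p 2e-06), and SAP30, a subunit of the same complex, was lower at both times (−0.43 ± 0.04 and −0.24 ± 0.04). ARID4B, another subunit, was higher at 3 h (0.16 ± 0.03) and lower at 24 h (−0.10 ± 0.03). The latter was not called with median centring (limma adjusted p 0.09) or with the mean of its probe sets (limma adjusted p 0.14). RBBP7 was higher at 24 h (0.17 ± 0.03) and HDAC1, a histone deacetylase gene, lower (−0.22 ± 0.03). Of 4 measured target genes of MondoA and MLX, 2 were lower at each time (50%, against 31.1% and 45.7% of all genes), ACACB and TXNIP. ACACB, of fatty acid metabolism, was lower by −0.54 ± 0.04 and −1.01 ± 0.04. TXNIP, which limits glucose uptake, was lower by −0.18 ± 0.03 and −0.44 ± 0.03. In vehicle at 3 h against baseline, 3 of these 4 target genes were called lower and 0 higher (75%, against 20% of all genes). In vehicle at 24 h, 0 were called (0%, against 11.9%).

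The genes with levels most like those of each member over the 20 arrays were ranked by Pearson r, as a description with no test. Nearest to MYC were OSGIN1 (r = 0.989), ZNF107 (0.988), PFKFB3 (0.988), ARHGEF18 (0.987) and SYNPO2L (0.986). For MAX they were STC2 (0.941) and FOXO3 (0.915), and STC2 also had an E2 difference of 1.03 at 3 h and −0.64 at 24 h. The nearest to MXD1 were VLDLR (0.979) and HSD11B2 (0.977), and to MXI1 MIPEP (0.988) and PAPOLG (0.978). Those nearest to MNT were ZBTB24 (0.886) and SSH1 (0.869), and to MLX MTX2 (0.869) and IFT88 (0.866).

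The arrays correlated at 0.998 to 0.999 within groups and 0.989 to 0.998 between groups. All 8 luminal epithelial markers were above the dim level of 6.11 (the bound of the dimmest 25% of genes) in every group. Their mean level was 12.7 to 12.79 on the 3 h E2 arrays and 13.06 to 13.07 on the 3 h vehicle arrays, with GATA3 and FOXA1 lower after E2 (−2.07 and −1.30) and KRT19 higher (0.59). Of the basal, stromal, and immune and endothelial markers, 4, 8 and 7 were measured, and their mean level lay between 5.122 and 5.558 on every array, below that level. Singly, 3 to 4 of 4 basal, 6 to 7 of 8 stromal and 4 to 5 of 7 immune and endothelial markers had a group mean below it. The 3′ minus 5′ signal of the ACTB control, a sign of RNA quality, was 0.291 to 0.339 on the 3 h vehicle arrays and 0.343 to 0.419 on the 3 h E2 arrays, which did not overlap. That of GAPDH moved the other way, from −0.122 to −0.104 with vehicle to −0.153 to −0.129 with E2, also without overlap. At 24 h both controls overlapped between vehicle and E2. At 0 h ACTB stood at 0.456 to 0.479, above every array of the other groups and so above both vehicle groups compared with it. The part of these differences in the results at 3 h and against baseline was not tested.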

How the data were processed

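Per the submitters' processing notes, the authors used RMA (affy) to obtain the deposited log2 level of each probe set. Versions are not given in the sources used here. RMA brings all arrays to 1 distribution and hides any shift in total RNA. Of 22277 probe sets, 62 controls were left out, and 19064 had 1 symbol, 1043 several and 2108 none. The highest-mean probe set stood for each of 11963 genes, and no low-value filter was applied. The dim level, 6.11, bounds the lowest 25% of genes.

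All 20 arrays entered 1 limma 3.58.1 fit in R 4.3.3 (lmFit, eBayes, two-sided; a mean per group, no block), which was also tested on simulated data. P-values were adjusted by Benjamini-Hochberg over all genes, with a threshold of 0.05. Precision is limited by the number of arrays. No batch is given in the labels. E2 and vehicle arrays of 1 replicate letter and time did not deviate together: their 8 correlations ran from −0.193 to 0.0126. All 40 same-letter correlations ran from −0.245 to 0.37, and 6 were over 0.1. Alternatives covered scaling, dim genes, probe set choice, variance settings and leaving out each array. Members and lists were chosen with earlier results of these data known. From each list other than the markers, up to 3 called genes per direction with the smallest p were named for each E2 comparison; all 6 of the extended network, the 5 genes nearest to MYC and 2 to each other member were named.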

Additional observations from a re-analysis of the deposited data

Results flagged for a closer look

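Within each group of 4 arrays, 1 array stood far from the other 3 in 16 of 250 gene and group sets examined, where chance flags about 1 in 20. For the members this held for MAX on 3 h vehicle array C (11.16, others 11.04 to 11.05) and for MXD1 on 24 h vehicle array D (6.569, others 6.256 to 6.302). Elsewhere it held for MXD3 on 3 h vehicle array A (8.127), MLXIPL on 0 h array C (7.005), PAF1 on 0 h array C (8.362) and 3 h E2 array A (8.799), and CDC25A on 0 h array A (7.408). It also held for THBS1 on 24 h vehicle array A (10.01), GADD45A on 3 h vehicle array D (10.38), CDKN1B on 3 h E2 array A (11.31), RBBP7 on 3 h vehicle array B (11.84) and 24 h vehicle array A (11.96), and IMPDH2 on 0 h array B (10.81). The last were EP400 on 0 h array A (9.31), MYCBP2 on 3 h vehicle array A (9.193) and ARID4B on 3 h vehicle array D (11.33).

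The E2 effect at 24 h differed from that at 3 h, by the limma test of the difference, for 35 named genes. Among the members the difference was −1.333 for MYC, −0.4675 for MAX, −0.7241 for MXD1, −0.5008 for MXI1 and 0.1861 for MLX. In the wider network it was −0.2954 for MYCN, −0.4566 for MXD3 and −0.3351 for MLXIP. Cofactor, turnover and corepressor genes gave 0.1468 for TRRAP, −0.255 for AURKA, 0.5289 for SKP2, −0.5811 for USP36, −0.4667 for SIN3B, 0.196 for SAP30, 0.174 for RBBP7 and −0.2067 for HDAC1. The same lists gave 0.3091 for ZBTB17, 0.1889 for SMARCB1, −0.2497 for RUVBL1, 0.1923 for FBXW7, 0.1759 for MYCBP2, 0.1338 for STUB1 and −0.2656 for ARID4B. MYC-induced genes gave 0.3747 for CDC25A, 0.5011 for CAD, 0.954 for ODC1, −0.1238 for HSPE1, 0.2953 for NME1, −0.2103 for LDHA and −0.154 for IMPDH2. Genes repressed by MYC gave −0.3632 for DDIT3, −0.4537 for GADD45A and −0.9817 for NDRG1, and the MondoA and MLX targets ACACB and TXNIP gave −0.467 and −0.2574.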

How the results depend on the processing

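Over 30 alternatives, 868 of 900 member differences kept direction and side of the threshold, 21 gained a call, 8 lost one and 0 called ones changed sign. The other 3, uncalled throughout, changed sign: MLX in both vehicle comparisons with the mean of its probe sets, and MXD1 in vehicle at 3 h without 0 h array B. The E2 rises of MYC (2.27 to 2.42 at 3 h, 0.96 to 1.08 at 24 h) and MXD1 (1.25 to 1.35, 0.54 to 0.65), both MAX effects (0.24 to 0.34, −0.17 to −0.13), the MXI1 fall at 24 h (−0.58 to −0.53) and the MNT fall at 3 h (−0.33 to −0.24) kept their calls in all of them. With all 19064 single-symbol probe sets tested, 5612 features were called at 3 h instead of 3720 of 11963 genes. Vehicle at 3 h against baseline called 4 members with trend and robust eBayes and 4 with array weights, in place of 2; at 24 h these settings called 2 and 2, in place of 1. Leaving out 1 array moved that last count from 0 (without 0 h array B) to 2 (without 3 h E2 array D). MNT gained its call of a changed effect between times in 6 settings, median centring among them (limma adjusted p 0.039), and MYC gained a vehicle call at 3 h with array weights (0.019); MXI1 lost its own without 3 h vehicle array B (0.051). SKP2 at 24 h, vehicle against baseline, reversed to −0.01175 with the mean of its probe sets, and the cause was not tested. With the replicate block, 3665 and 5479 genes were called for E2 at 3 h and 24 h, and no count of members called changed. Replicate letters were not shown to pair the arrays.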
